A study of Homo sapiens with 6 samples.

Results

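The genes described here encode enzymes of cholesterol and fatty acid synthesis and the proteins that set their transcription. They were chosen by name, as 32 listed symbols, with earlier results of these data known, as were the related lists below. Shares over all tested genes are therefore given beside the members as description and not as independent support. Each gene was represented by 1 probe set, a group of short probes that measures 1 transcript. The probe set had to be annotated to that symbol alone, and the one with the highest mean signal over the arrays was used. Of the 32 genes, 29 had such a probe set, and 28 lay above the filter on dim signals and were tested, among 12431 tested genes in the series. MVD was below the filter, with a signal of 1.3 to 5.1 in the 6 arrays. CYP51A1, FDFT1 and FADS1 had no probe set annotated to them alone and were not analysed here.

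VCaP, a human line from prostate cancer with the TMPRSS2/ERG gene fusion, is described by the submitters as having a high basal SOX9 level. The groups were SOX9 siRNA A, SOX9 siRNA B and a non-targeting control siRNA, with 2 arrays each, and RNA was collected 72 h after transient transfection. All 3 groups thus shared the cell line, the culture in serum-containing medium and the transfection. The study compared transcripts after knockdown of SOX9, a DNA-binding factor of the SOX family, with those under control siRNA. The design text calls the replicates biological duplicates, and all are cultures of 1 cell line.

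Cholesterol is built from acetyl-CoA through mevalonate, isoprenoid diphosphates, squalene and lanosterol. The genes of this route are switched on together by SREBP2, encoded by SREBF2, while SREBP1, encoded by SREBF1, acts more on fatty acid genes. Both are made as precursors in the endoplasmic reticulum, where SCAP escorts them to the Golgi for cleavage when sterols are scarce and INSIG1 and INSIG2 hold them back when sterols are plentiful. Prostate cancer cells are known for active lipid synthesis, which androgens promote. An array measures transcripts and not the cleaved, active factor. In cultures measured as a whole, a change in the share of some cells and a change in RNA per cell cannot be told apart.

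The arrays set the frame for every value. The 2%-trimmed mean signal was 165 and 160.3 under siRNA A, 144 and 190.0 under siRNA B, and 157 and 176 under control siRNA, so replicate 2 of siRNA B was the brightest array. The GAPDH ratio of 3′ to 5′ probe sets ran from 1.04 to 1.19, and that of ACTB was 3.53 and 3.79 under siRNA A, 3.34 and 2.91 under siRNA B, and 3.07 and 3.15 under control siRNA. Its part in the results was not tested. Of 10 prostate luminal markers, 8 had a probe set of their own and all 8 were tested, with signals from 102 to 17513. Their summed signal ran from 23889 to 27165 over the arrays. Among them SLC45A3, an androgen-responsive membrane protein, had a signal of 531 and 1466 under siRNA A, 443 and 752 under siRNA B, and 317 and 338 under control siRNA, all siRNA arrays above both controls, and a log2 fold change of 1.09 (SE 0.34, limma adjusted p = 0.468) that passed with the replicate number as a block (limma adjusted p = 0.000959). It was the 1 of the 8 that passed with the block, where 3.53% of all tested genes did and 1.11% as higher. Of the 8, 5 had a positive log2 fold change and 3 a negative one, with a median of 0.11. The lowest was that of KLK3, which encodes prostate-specific antigen, at -0.41 (limma adjusted p = 0.846). Of 9 fibroblast and stromal markers 5 were below the filter, as were 5 of the 7 leukocyte markers with a probe set of their own. The summed leukocyte signal was 128 and 186 under siRNA A, 124 and 192 under siRNA B, and 116.5 and 155 under control siRNA. The summed stromal signal was 498 and 789 under siRNA A, 1041 and 2345 under siRNA B, and 480.5 and 653 under control siRNA. LUM, a matrix proteoglycan, had the largest share of it in every array, at 262 and 662 under siRNA A, 702 and 2019 under siRNA B, and 155 and 385 under control siRNA, siRNA B replicate 2 being highest and siRNA B replicate 1 next. Its log2 fold change for both siRNAs was 1.47 (SE 0.43, limma adjusted p = 0.434), and the adjusted p in limma was 7.97e-07 with the block. The markers below the filter were COL1A2, COL3A1, DCN, PDGFRA and PDGFRB, with a highest signal of 26.7 for DCN. Of the 4 tested, LUM was the 1 with a positive log2 fold change. The other 3, COL1A1, VIM and ACTA2, had negative ones, the lowest being -0.66. The part of SLC45A3, LUM and the leukocyte markers in the results was not tested.

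SOX9, the target, had a signal of 1108 and 673 under siRNA A, 609 and 333.5 under siRNA B, and 1469 and 1126 under control siRNA. Each of the 4 siRNA arrays was lower than both controls, with siRNA B replicate 2 the lowest, and siRNA A replicate 1 was just below the lower control. The log2 fold change for both siRNAs did not pass the test at -1.02 (SE 0.29, limma adjusted p = 0.434) and passed with the replicate number as a block (limma adjusted p = 0.00189). The other SOX9 probe set had a log2 fold change of -1.36 for both siRNAs. Its signal in siRNA A replicate 1 was 861, against 1558 and 1270 under control siRNA.

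Most of the synthesis genes had a higher signal with SOX9 siRNA than with control siRNA. Signals were used as log2(signal + 16), so that fold changes of dim genes are understated. For both siRNAs against control, 25 of 28 members had a positive log2 fold change, while SREBF2, SCAP and INSIG2 had a negative one. The median over the members was 0.59, against -0.04 over all tested genes, of which 44.9% were positive. At a Benjamini-Hochberg adjusted p below 0.05, limma called 0 of 28 members, where it called 0.0402% of all tested genes, and the smallest adjusted p was that of STARD4, 0.395. At an unadjusted p below 0.05, 11 members were higher and 0 lower, where 2.17% of all tested genes were higher. With the replicate number as a block, limma called 11 of 28 members, all higher, where it called 3.53% of all tested genes and 1.11% as higher. These were STARD4, MSMO1, IDI1, HMGCS1, INSIG1, SREBF1, ACAT2, LSS, NSDHL, SQLE and EBP. That fit assumes 1 replicate difference shared by the 3 groups, whereas the members' differences given below were unequal, and it draws its spread from the trend over all genes alone.

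**Figure D1:**
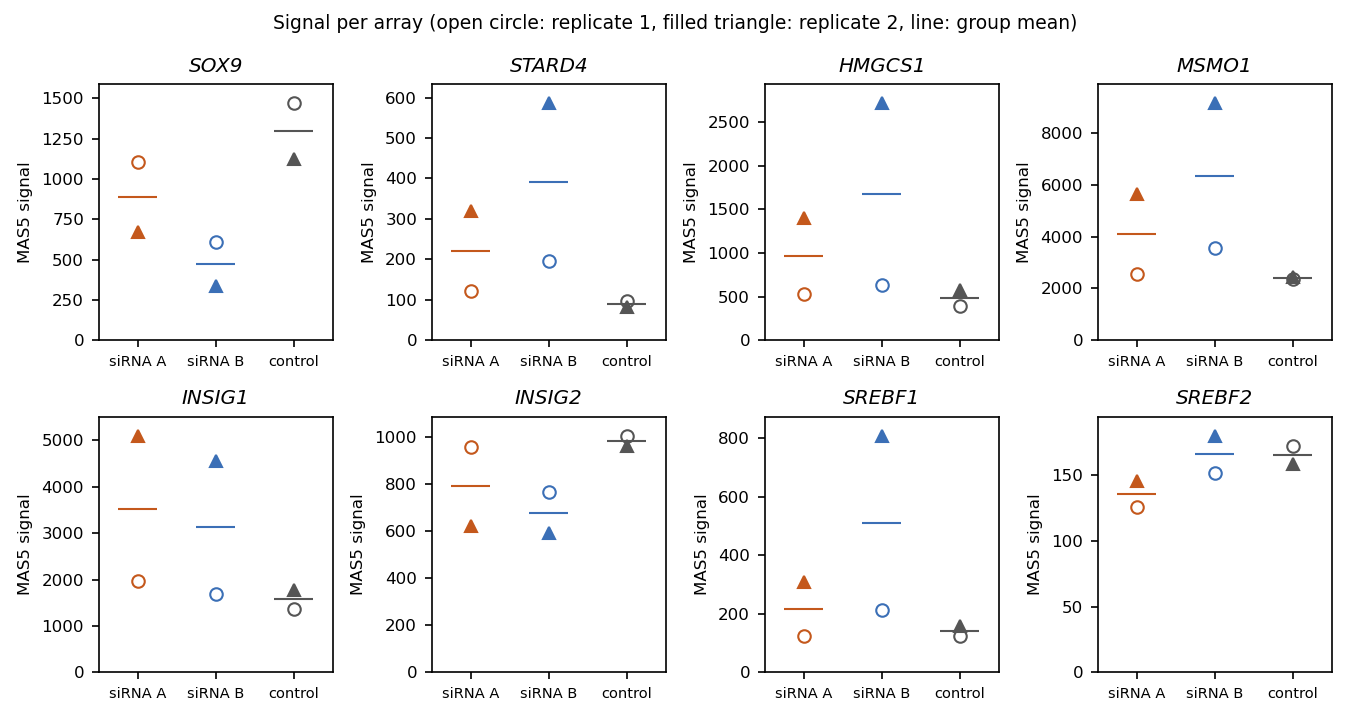
MAS5 signal (vertical axes, linear, starting at 0) of SOX9 and 7 members in each array, by group, with open circles for replicate 1, filled triangles for replicate 2 and a line at the group mean. In STARD4, HMGCS1, MSMO1, INSIG1 and SREBF1 the replicate 2 arrays of both siRNAs stand above every control array, whereas INSIG2 is lowest in those arrays.

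The arrays contributed unequally. In siRNA A replicate 1, 9 of 28 members were above both control arrays, where 28% of all tested genes were. In siRNA A replicate 2 it was 22 of 28, where 29.9% of all tested genes were. In siRNA B replicate 1 it was 17 of 28, where 16.7% of all tested genes were, and in siRNA B replicate 2 it was 26 of 28, where 50.9% were. The last array was also the highest of the 6 in 25 of 28 members, against 43.3% of all tested genes. With all arrays scaled to a common trimmed mean, these numbers above both controls were 9, 22, 23 and 25 of 28 in the same order, where 32.7%, 37.2%, 39.5% and 39.1% of all tested genes were. The members' median level relative to the control mean, on the log2 scale, was -0.01 and 0.77 under siRNA A and 0.23 and 1.44 under siRNA B, so siRNA A replicate 1 lay closest to control.

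Both replicate 2 arrays of the siRNAs were above both controls in 22 of 28 members, where 23.7% of all tested genes were, and both replicate 1 arrays in 7, where 8.62% were. In 20 of 28 members siRNA B replicate 2 was the highest array and siRNA A replicate 2 the next, an order found in 15% of all tested genes. After scaling to a common trimmed mean it was 17 of 28 and 10.2%, siRNA B replicate 2 being highest in 22 of 28 against 24.8%. All 4 SOX9 siRNA arrays lay above both control arrays in 7 members, IDI1, LSS, MSMO1, NSDHL, SC5D, DHCR7 and STARD4, where 4.58% of all tested genes did, and in 9 members, where 9.5% did, after that scaling. They lay below both in INSIG2 and SCAP, 2 of 28, where 11.8% of all tested genes did.

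**Figure D2:**
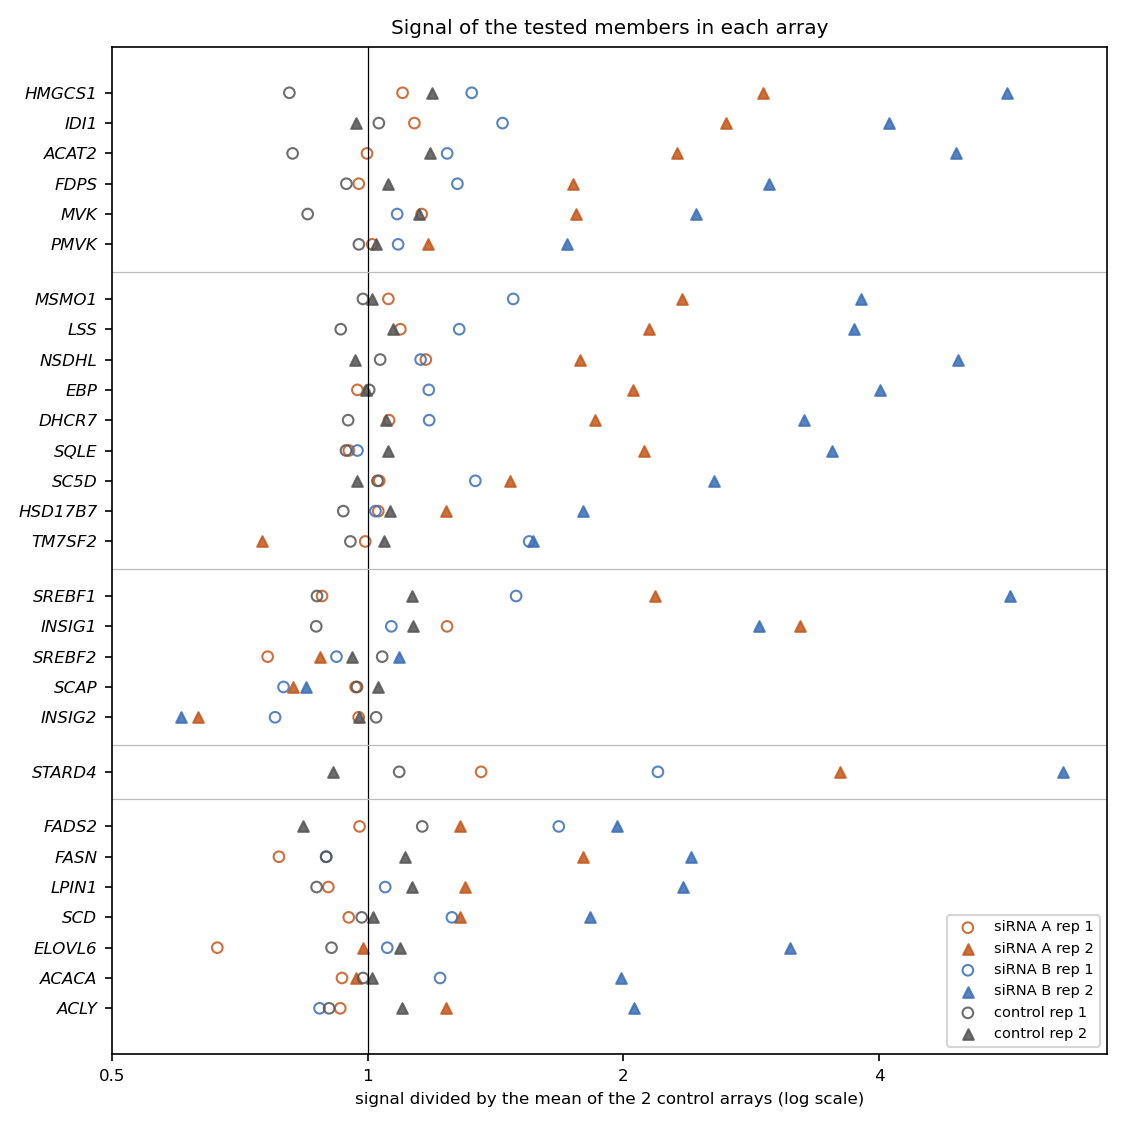
Signal of each of the 28 tested members (rows, grouped from top to bottom as mevalonate steps, squalene to cholesterol steps, regulators, sterol transfer, and fatty acid and glycerolipid steps) divided by the mean of the 2 control arrays (horizontal axis, log scale), with 1 symbol per array. Filled blue triangles, siRNA B replicate 2, lie farthest right in 25 rows and filled orange triangles, siRNA A replicate 2, come next in most of these, while open orange circles, siRNA A replicate 1, lie near the control symbols.

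Replicate 2 exceeded replicate 1 in 25 of 28 members with siRNA A, in 27 with siRNA B and in 20 with control siRNA. The median ratio of replicate 2 to replicate 1 was 1.52 with siRNA A, 2.46 with siRNA B and 1.10 with control. Ratios above 2 were found in 10 members under siRNA A, 18 under siRNA B and 0 under control. As log2(signal + 16), the median difference was 0.57, 1.29 and 0.14, against -0.07, 0.31 and 0.14 over all tested genes. With a common trimmed mean it was 0.61, 0.88 and -0.02 over the members and -0.03, -0.05 and 0.00 over all tested genes. The labels give replicate numbers without saying what they mark. Whether the replicate difference was unequal between the groups was not tested.

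**Figure D3:**
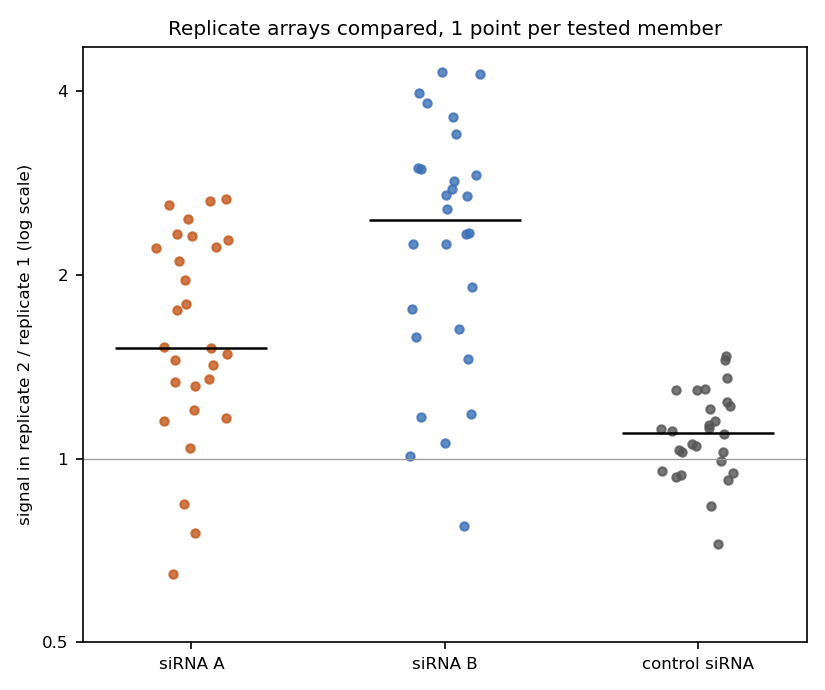
Signal in replicate 2 divided by signal in replicate 1 (vertical axis, log scale) for each group, with 1 point per tested member, spread sideways for visibility, and a line at the median. The median was 1.52 with siRNA A, 2.46 with siRNA B and 1.10 with control siRNA, and the control points lie between 0.725 and 1.47.

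Leaving out the replicate 2 arrays of both SOX9 siRNAs brought the members' median log2 fold change to 0.16. Leaving out the replicate 1 arrays of both brought it to 1.02. In these fits 1 array was left for each siRNA, and all of the spread came from the 2 control arrays and the trend. Without siRNA B replicate 2 alone the median was 0.32, and without siRNA B replicate 1 alone it was 0.84 with 1 member called, where 0.499% of all tested genes were.

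The promoters of the members were searched for 3 short motifs, since genes that move together may share them. SREBPs bind sterol regulatory elements and act together with NF-Y, which binds CCAAT, and with Sp1, which binds GGGCGG. The windows ran from 250 bases before to 50 bases after each annotated start in RefSeq on GRCh38.p14, and 28 of the 32 members had 40 windows in all. ACAT2, FASN, FDFT1 and SQLE had no window. The NF-Y motif, on either strand, stood in 60% of the member windows against 34.6% of all 35116 windows, and in at least 1 window of 20 of the 28 members. The 8 without it were CYP51A1, ELOVL6, FADS1, INSIG2, LPIN1, PMVK, SCAP and SREBF1. Among tested members the median log2 fold change for both siRNAs was 0.67 in the 19 with it and 0.29 in the 6 without. The ranges overlapped, from -0.13 to 1.40 with it and from -0.44 to 0.96 without it, and the 6 include the regulators INSIG2 and SCAP. Of these 6, SREBF1 had a log2 fold change of 0.96 without that motif. The Sp1 motif stood in 87.5% of member windows and 45.0% of all windows. The longer motif TCACNCCAC, one form of the sterol regulatory element, stood in 1 of 40 member windows, that of SREBF2, and in 1.13% of all windows. A match is a description of the letters only.

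The following stretches upstream of the start, each 5′ to 3′ on the gene's strand, show the NF-Y motif in 5 members and in SREBF2. The 5 had log2 fold changes from 0.84 to 1.40, and SREBF2 is the 1 member that holds the NF-Y motif and TCACNCCAC. IDI1, at 1.03 with 3 and 2 matches in 2 of its windows, and LSS, at 0.86 with 1 match, are not shown. Matches were not limited to members with high fold changes. MVK had 5 in its window at a log2 fold change of 0.59, and ACLY, ACACA, HSD17B7 and SCD had 2 in a window at 0.27 to 0.37. Capitals mark CCAAT, its reverse complement ATTGG and, in SREBF2, TCACNCCAC. STARD4 is shown at chr5:111512646-111512711, minus strand, HMGCS1 at chr5:43313493-43313582, minus strand, MSMO1 at chr4:165327469-165327654, plus strand, INSIG1 at chr7:155297693-155297727, plus strand, NSDHL at chrX:152830820-152830998, plus strand and SREBF2 at chr22:41832957-41833018, plus strand.
STARD4: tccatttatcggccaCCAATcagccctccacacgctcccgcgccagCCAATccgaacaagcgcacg
HMGCS1: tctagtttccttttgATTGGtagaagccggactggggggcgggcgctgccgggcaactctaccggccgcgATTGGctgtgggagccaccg
MSMO1: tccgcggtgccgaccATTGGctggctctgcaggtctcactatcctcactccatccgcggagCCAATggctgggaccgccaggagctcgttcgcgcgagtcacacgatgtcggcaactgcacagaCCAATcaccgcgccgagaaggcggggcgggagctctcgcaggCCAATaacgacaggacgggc
INSIG1: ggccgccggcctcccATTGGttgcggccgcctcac
NSDHL: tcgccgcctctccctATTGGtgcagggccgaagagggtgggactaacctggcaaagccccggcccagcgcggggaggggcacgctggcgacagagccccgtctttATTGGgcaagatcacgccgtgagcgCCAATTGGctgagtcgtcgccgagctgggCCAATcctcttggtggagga
SREBF2: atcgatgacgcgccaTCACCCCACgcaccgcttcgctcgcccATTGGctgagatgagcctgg
MSMO1 held 4 such matches upstream of its start, NSDHL 5, with 1 overlapping pair on opposite strands, STARD4 and HMGCS1 2 each, and INSIG1 and SREBF2 1 each.

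Among the 5 regulators, SREBF1 and INSIG1 had positive log2 fold changes and passed with the replicate block, while SREBF2, SCAP and INSIG2 had negative ones that did not pass. SREBF1 encodes the precursor of SREBP1 and is itself a target of SREBPs. Its signal was 125 and 309 under siRNA A, 212 and 808.5 under siRNA B, and 123 and 159.7 under control siRNA. Replicate 1 of siRNA A lay between the control arrays, and the other siRNA arrays lay above both. For both siRNAs the log2 fold change was 0.96 (SE 0.41, limma adjusted p = 0.611), and with the replicate block the adjusted p in limma was 0.00323. For the siRNAs taken singly it was 0.45 with siRNA A and 1.47 with siRNA B, with limma adjusted p of 0.999 and 0.245. With the replicate block these limma adjusted p were 0.728 and 1.21e-05.

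SREBF2 encodes the precursor of SREBP2, the main activator of the cholesterol genes. Its signal was 126 and 145 under siRNA A, 152 and 179.6 under siRNA B, and 172 and 158 under control siRNA, and the groups overlapped. Its log2 fold change was -0.13 (SE 0.23, limma adjusted p = 0.942). The other 2 SREBF2 probe sets above the filter had log2 fold changes of 0.12 and -0.32, so the probe sets differed in sign. This is the gene whose promoter stretch above holds TCACNCCAC.

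INSIG1, a retention protein whose gene SREBPs activate, had a signal of 1960.3 and 5101 under siRNA A, 1686 and 4563 under siRNA B, and 1375 and 1786 under control siRNA. Both replicate 2 arrays of the siRNAs were more than 2 times their replicate 1 arrays, and siRNA B replicate 1 lay between the controls. It was the 1 member in which siRNA A replicate 2 was the highest array. The log2 fold change for both siRNAs was 0.91 (SE 0.37, limma adjusted p = 0.569), and with the replicate block the adjusted p in limma was 0.00109. The other 2 INSIG1 probe sets had 1.11 and 1.02.

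INSIG2, the other retention protein, had a log2 fold change of opposite sign. Its signal was 959.6 and 621 under siRNA A, 765 and 593 under siRNA B, and 1006 and 960.3 under control siRNA. All 4 SOX9 siRNA arrays were below both controls, siRNA A replicate 1 by a narrow margin, and both replicate 2 arrays were lowest. That log2 fold change was -0.44 (SE 0.26, limma adjusted p = 0.728) and did not pass with the block either (limma adjusted p = 0.449).

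SCAP, the escort of the SREBP precursors, had a signal of 566 and 477 under siRNA A, 465 and 494 under siRNA B, and 568 and 601 under control siRNA. The siRNA arrays were all below both controls, siRNA A replicate 1 again by a narrow margin. Against control it gave -0.22 (SE 0.24, limma adjusted p = 0.894) on the log2 scale.

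The genes of the mevalonate steps had log2 fold changes from 0.29 to 1.15 for both siRNAs, all 6 tested members positive, with a median of 0.81. HMGCS1 encodes the cytosolic enzyme that makes HMG-CoA. Its signal was 527 and 1401 under siRNA A, 635 and 2714 under siRNA B, and 388 and 571 under control siRNA. The groups overlapped, since siRNA A replicate 1 lay between the controls. For both siRNAs it gave a log2 fold change of 1.15 (SE 0.46, limma adjusted p = 0.567), with a limma adjusted p of 0.000266 with the replicate block, and 0.99 in the other HMGCS1 probe set.

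IDI1, which interconverts isopentenyl and dimethylallyl diphosphate, had a signal of 1457 and 3395 under siRNA A, 1851 and 5272 under siRNA B, and 1324 and 1244 under control siRNA. All 4 siRNA arrays were above both controls, by a small margin in siRNA A replicate 1. Its log2 fold change was 1.03 (SE 0.36, limma adjusted p = 0.496), and the adjusted p in limma with the replicate block was 0.000202. Its probe set carries the suffix that marks probes shared with other transcripts, so the source is uncertain. Another IDI1 probe set gave 1.02, and a dimmer one 0.10, and both carry the same suffix.

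ACAT2 encodes the cytosolic thiolase that makes acetoacetyl-CoA. Its signal was 496 and 1147 under siRNA A, 616 and 2445 under siRNA B, and 405 and 588 under control siRNA. Here siRNA A replicate 1 lay between the controls. ACAT2 had a log2 fold change of 0.96 (SE 0.43, limma adjusted p = 0.624), with 0.00452 as the limma adjusted p with the replicate block.

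FDPS, which makes farnesyl diphosphate, had a signal of 1144 and 2047 under siRNA A, 1495 and 3484 under siRNA B, and 1107 and 1237.5 under control siRNA. The 3 siRNA arrays other than siRNA A replicate 1 were above both controls. Its log2 fold change was 0.67 (SE 0.31, limma adjusted p = 0.643), and it did not pass with the block (limma adjusted p = 0.0666). The kinases MVK and PMVK, which phosphorylate mevalonate in turn, had log2 fold changes of 0.59 and 0.29 (limma adjusted p = 0.689 and 0.854).

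All 9 tested genes of the steps from squalene to cholesterol had a positive log2 fold change for both siRNAs, from 0.21 to 0.95 with a median of 0.70. MSMO1 encodes a methyl sterol oxidase. Its signal was 2541 and 5624.5 under siRNA A, 3564 and 9139.7 under siRNA B, and 2372 and 2432 under control siRNA. All 4 siRNA arrays were above both controls, and the control arrays were close together. MSMO1 had a log2 fold change of 0.95 (SE 0.32, limma adjusted p = 0.482), and with the replicate block the adjusted p in limma was 7.84e-05.

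LSS, lanosterol synthase, had a signal of 844 and 1657 under siRNA A, 990.0 and 2887 under siRNA B, and 718 and 826.5 under control siRNA, again with all siRNA arrays above both controls. LSS had a log2 fold change of 0.86 (SE 0.36, limma adjusted p = 0.58), with a limma adjusted p of 0.0107 with the block. NSDHL, a sterol dehydrogenase of the demethylation at carbon C-4, had a signal of 164 and 249 under siRNA A, 162 and 695 under siRNA B, and 145 and 135 under control siRNA. The 4 siRNA arrays were above both controls, and siRNA B replicate 2 exceeded siRNA B replicate 1 by 4.30-fold, the largest such ratio among the members. NSDHL had a log2 fold change of 0.84 (SE 0.39, limma adjusted p = 0.643), and it passed with the block (limma adjusted p = 0.0163).

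EBP, a sterol isomerase, had a signal of 377 and 795 under siRNA A, 457 and 1554 under siRNA B, and 389 and 386 under control siRNA. Replicate 1 of siRNA A was below both controls and the other siRNA arrays were above them. EBP had a log2 fold change of 0.79 (SE 0.39, limma adjusted p = 0.66), and 0.0403 was the limma adjusted p with the block. Of the others, DHCR7, the terminal reductase, had 0.70, SQLE, squalene epoxidase, 0.69, SC5D, a sterol desaturase, 0.59, HSD17B7, a sterol ketoreductase, 0.30 and TM7SF2, a sterol reductase, 0.21. The HSD17B7 probe set carries the same suffix as that of IDI1. SQLE alone among these 5 passed with the block (limma adjusted p = 0.0323), and its signal in the replicate 1 arrays, 1554 with siRNA A and 1590.5 with siRNA B, lay between the controls, 1542 and 1728.

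STARD4, a cytosolic carrier of cholesterol between membranes and a known SREBP2 target, had the largest log2 fold change of the members. Its signal was 121 and 319.7 under siRNA A, 195 and 586 under siRNA B, and 96.9 and 81.0 under control siRNA. All 4 siRNA arrays were above both controls, and siRNA B replicate 1 was more than 2 times the higher control. Group means were 220.3 ± 141 under siRNA A, 391 ± 276 under siRNA B, and 89.0 ± 11.2 under control siRNA (SD, n = 2 each). The log2 fold change for both siRNAs was 1.40 (SE 0.38, limma adjusted p = 0.395), with 7.73e-07 as the limma adjusted p with the replicate block. It was 1.04 for siRNA A and 1.77 for siRNA B, neither called without the block (limma adjusted p = 0.999 and 0.133). Both were called with it (limma adjusted p = 0.012 and 1.99e-08).

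The fatty acid and glycerolipid genes had a lower median, 0.37, than the mevalonate and later sterol genes. All 7 tested members were positive for both siRNAs, from 0.27 to 0.44. None passed in limma in that comparison without the block, where 0.0402% of all tested genes did, or with it, where 3.53% did. At an unadjusted p below 0.05 the count was 0, where 2.17% of all tested genes were higher. With 7 genes, counts of 0 do not set them apart from all tested genes. The difference between the branches was not tested. FADS2, the delta-6 desaturase, had a signal of 56.7 and 74.5 under siRNA A, 97.3 and 114 under siRNA B, and 67.2 and 48.7 under control siRNA. Its log2 fold change was 0.44 (SE 0.24, limma adjusted p = 0.715), and both siRNA B arrays were above both controls.

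FASN, fatty acid synthase, had a signal of 282 and 643 under siRNA A, 321 and 862 under siRNA B, and 321 and 397 under control siRNA. It was below the higher control in both replicate 1 arrays and above it in both replicate 2 arrays, and the log2 fold change was 0.40 (SE 0.37, limma adjusted p = 0.87). LPIN1, a phosphatidate phosphatase of glycerolipid synthesis, had a signal of 421 and 610.5 under siRNA A, 491 and 1102 under siRNA B, and 408 and 529 under control siRNA and a log2 fold change of 0.39 (SE 0.31, limma adjusted p = 0.845).

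SCD, stearoyl-CoA desaturase, had a signal of 5421 and 7330.3 under siRNA A, 7169.6 and 10430.2 under siRNA B, and 5615 and 5795 under control siRNA. Only siRNA A replicate 1 lay below the controls, and the log2 fold change was 0.37 (SE 0.18, limma adjusted p = 0.655). The other 3 SCD probe sets above the filter gave 0.93, 0.67 and 0.09. ELOVL6, a fatty acid elongase, had 0.28, ACACA, acetyl-CoA carboxylase, 0.28 and ACLY, ATP citrate lyase, 0.27.

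Each siRNA was also compared with control on its own. Both comparisons use the same control arrays and so are not independent. For siRNA A the log2 fold change was positive in 22 of 28 members (43.1% of all tested genes), with a median of 0.34 against -0.05 over all tested genes. For siRNA B it was positive in 26 of 28 (47.6% of all tested genes), with a median of 0.84 against -0.02. limma called 0 of 28 members for siRNA A, where it called 0.0161% of all tested genes, and 2 members were higher at an unadjusted p below 0.05, where 1.05% of all tested genes were. It called 0 of 28 for siRNA B, where it called 0.185%, and 16 members were higher at an unadjusted p below 0.05, where 3.85% were. With the replicate block it called 2 members for siRNA A, INSIG1 and STARD4, where it called 1.79% of all tested genes and 0.426% as higher, and 16 for siRNA B, where it called 5.94% and 2.08% as higher. The 16 were the 11 called for both siRNAs together with FDPS, SC5D, DHCR7, ELOVL6 and SCD. Without siRNA A replicate 2 the median for siRNA A was -0.01, and without siRNA A replicate 1 it was 0.77. Without siRNA B replicate 2 the median for siRNA B was 0.23 with 0 members called, and without siRNA B replicate 1 it was 1.44 with 19 called, where 8.06% of all tested genes were. Without control replicate 1, 1 member was called for siRNA B, where 0.33% of all tested genes were, and without control replicate 2, 2 members were, where 0.499% were.

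**Figure D4:**
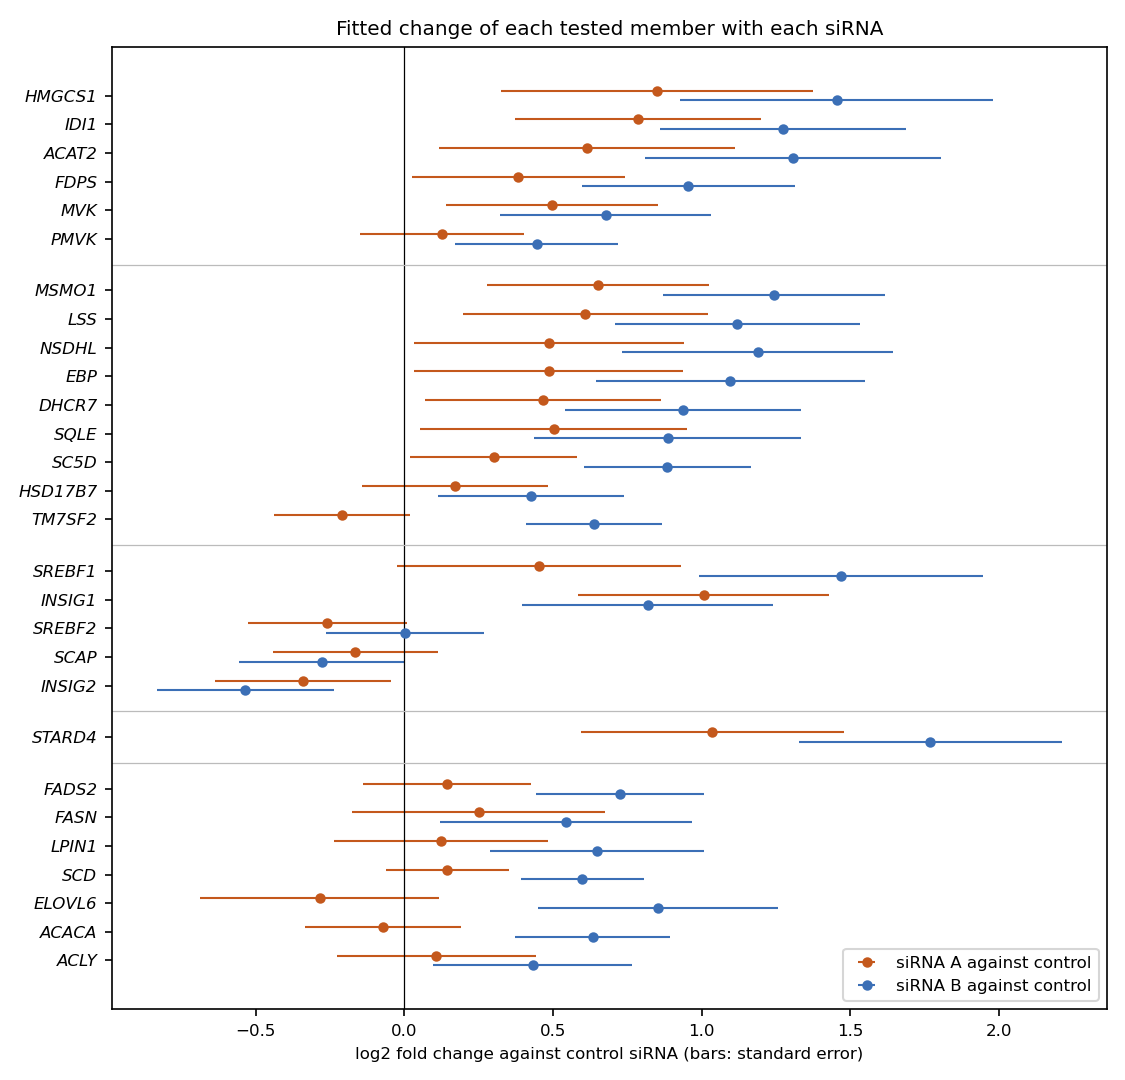
Fitted log2 fold change against control siRNA (horizontal axis) of each tested member for siRNA A (orange) and siRNA B (blue), with bars for the standard error and rows grouped as mevalonate steps, squalene to cholesterol steps, regulators, sterol transfer, and fatty acid and glycerolipid steps. Blue points lie to the right of orange ones in 25 of 28 rows, the exceptions being INSIG1, SCAP and INSIG2.

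The difference between the siRNAs was tested directly. The log2 fold change of siRNA A over siRNA B was negative in 25 of 28 members, with a median of -0.52 against -0.03 over all tested genes, of which 45.5% were positive. limma called 0 of 28, where it called 0.0965% of all tested genes, and 5 members were lower at an unadjusted p below 0.05, where 4.02% of all tested genes were. With the block, limma called TM7SF2, SREBF1 and ELOVL6 as lower with siRNA A, where it called 2.9% of all tested genes and 1.41% as lower. Without siRNA B replicate 2 the median turned to 0.11, and without siRNA A replicate 1 it was -0.12. Without siRNA B replicate 1 it was -1.08, with 5 members called, where 2.34% of all tested genes were, and without siRNA A replicate 2 it was -0.85. For SREBF1 the difference was -1.02 (SE 0.48, limma adjusted p = 0.602) without the block and the adjusted p 0.0128 with it. For STARD4 it was -0.73 (SE 0.44, limma adjusted p = 0.768) and for INSIG1 0.19 (SE 0.42, limma adjusted p = 0.976). The siRNAs also gave different SOX9 signals, with a difference of 0.91 (SE 0.34, limma adjusted p = 0.432) that passed with the block (limma adjusted p = 0.0418). The part of that difference in the members' values was not tested.

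Other genes of lipid metabolism were taken from 7 lists of 72 symbols, of which 63 were tested. Of these, 44 had a positive log2 fold change for both siRNAs, with a median of 0.10 against 0.59 in the synthesis genes. limma called 0 of 63 without the block, where it called 0.0402% of all tested genes, and 6 were higher and 0 lower at an unadjusted p below 0.05, where 2.17% of all tested genes were higher. With the block it called 2 of 63, both of them higher, where it called 3.53% of all tested genes and 1.11% as higher. The 2 were SEC23A, a coat protein of the vesicles that carry SREBP precursors to the Golgi among much other cargo, and RDH11, a retinol dehydrogenase known to respond to SREBPs.

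SEC23A had a signal of 1222 and 1452 under siRNA A, 1247 and 2833 under siRNA B, and 1143 and 688.5 under control siRNA and a log2 fold change of 0.82 (SE 0.31, limma adjusted p = 0.536), with a limma adjusted p of 0.0153 with the block. Its control arrays differed more than its siRNA A arrays did. SEC24C, another coat protein, had a signal of 570.2 and 678 under siRNA A, 527 and 1035 under siRNA B, and 393 and 427 under control siRNA, all siRNA arrays above both controls, and a log2 fold change of 0.71 (SE 0.28, limma adjusted p = 0.568). Over the 8 tested genes of SREBP processing and sterol sensing the median was 0.06, and the cleaving proteases MBTPS1 and MBTPS2 had 0.10 and 0.041.

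Among 9 tested lipid genes known to respond to SREBPs, 7 were positive, where 44.9% of all tested genes were, with a median of 0.23. The 2 negative ones were ME1, at -0.07, and TMEM97, at -0.35. TMEM97 had a signal of 2484 and 1920 under siRNA A, 1501 and 1529 under siRNA B, and 2318 and 2316 under control siRNA. RDH11 had a signal of 4310.2 and 5633 under siRNA A, 6239.8 and 8453 under siRNA B, and 3595.5 and 4312 under control siRNA and a log2 fold change of 0.60 (SE 0.18, limma adjusted p = 0.468), with 0.0201 as the limma adjusted p with the block. ACSS2, which makes acetyl-CoA from acetate, had a signal of 165 and 234 under siRNA A, 171 and 449.7 under siRNA B, and 137 and 146 under control siRNA and a log2 fold change of 0.67 (SE 0.31, limma adjusted p = 0.643). All 4 siRNA arrays were above both controls in ACSS2.

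The medians of the branches that leave the pathway or break lipids down lay nearer to 0. All 5 tested genes of LXR and sterol efflux were positive with a median of 0.20, the highest being ABCA1, a cholesterol exporter, at 0.28, followed by NR1H3, an LXR receptor, at 0.25 (limma adjusted p = 0.89 and 0.901). Of 10 tested genes of uptake, storage and trafficking 6 were positive, with a median of 0.08. Their smallest unadjusted p belonged to GRAMD1B, a sterol transporter, at -0.37, and SOAT1, which esterifies cholesterol, at 0.42. Of 10 genes of isoprenoid branches 8 were positive with a median of 0.11, DOLK, dolichol kinase, having 0.34 and COQ2, of ubiquinone synthesis, 0.33.

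Of 9 tested genes of triglyceride and phospholipid synthesis 5 were positive, with a median of 0.02. DGAT2, which makes triglycerides, had -0.35 and PLIN2, a lipid droplet protein, -0.37. Of 12 tested genes of fatty acid oxidation 8 were positive, with a median of 0.06. Their smallest unadjusted p belonged to SLC25A20, the carnitine carrier of mitochondria, at 0.70, and HADHB, a subunit of the trifunctional protein, at 0.49 (limma adjusted p = 0.538 and 0.576). In both of these all 4 siRNA arrays were above both controls.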

How the data were processed

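Total RNA of VCaP cells was measured on Affymetrix Human Genome U133 Plus 2.0 arrays, 6 ug of RNA per labelling, per the labels. The deposited values are intensity on a linear scale, 1 signal for each of 54675 probe sets. The submitters' processing notes name MAS5, and its scaling target is not given in the sources used here. From these, log2(signal + 16) was computed with the authors' scaling kept. The 62 control probe sets were left out, and 1 probe set per gene was taken from 41091 annotated to 1 symbol. A gene was tested if its mean reached the median over probe sets, a signal of 22.0.

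limma 3.58.1 in R 4.3.3 fitted 3 groups over 6 arrays (3 residual degrees of freedom, eBayes with an intensity trend), and p-values were adjusted over 12431 genes. The procedure was tested on simulated data. Values in every array were given for the regulators, STARD4 and the 4 members of each branch with the largest fold changes, and 2 genes per related list were named by unadjusted p. The members and lists were chosen with earlier results of these data known.

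The labels do not say what a replicate number marks. After group means were removed, arrays of the same number correlated over the tested genes at 0.63 for siRNA A with siRNA B and at 0.18 for each siRNA with control. The block takes the numbers to pair the arrays in all 3 groups, although the correlation with control was low. For the genes described, blocked values are given where the block changes the call of the comparison discussed. Alternatives covered the offset, scaling, filter, probe set rule, variance settings, the block and left-out arrays. The number of arrays limits the precision.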

Additional observations from a re-analysis of the deposited data

Results flagged for a closer look

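In 3 members both siRNA A arrays lay on one side of the control mean and both siRNA B arrays on the other, as log2(signal + 16). TM7SF2 had a signal of 2500.5 and 1888 under siRNA A, 3899.6 and 3938 under siRNA B, and 2402 and 2631 under control siRNA. Its log2 fold change of siRNA A over siRNA B was -0.85 (SE 0.23, limma adjusted p = 0.213, or 0.0158 with the replicate block). ELOVL6 had 349.7 and 519.7 under siRNA A, 554 and 1649 under siRNA B, and 477 and 574.5 under control siRNA, a difference of -1.14 (SE 0.40, limma adjusted p = 0.375, or 0.00567 with the block). ACACA had 1734 and 1803 under siRNA A, 2262.5 and 3692 under siRNA B, and 1836 and 1882 under control siRNA, a difference of -0.70 (SE 0.26, limma adjusted p = 0.432, or 0.0963 with the block). Without siRNA B replicate 2 the difference was -0.84 in TM7SF2, -0.37 in ELOVL6 and -0.35 in ACACA. The pattern did not hold in the other probe sets of ACACA and ELOVL6. Against control, the other ACACA probe set had a log2 fold change of 0.13 with siRNA A and 0.42 with siRNA B. Those of ELOVL6 had 0.02 and -0.19 with siRNA A, and 0.97 and 0.68 with siRNA B.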

How the results depend on the processing

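The members' median log2 fold change for both siRNAs against control stayed positive under the 23 alternatives, running from 0.16 without replicate 2 of both siRNAs to 1.02 without replicate 1 of both. The other medians kept theirs except that without siRNA A replicate 2, alone or with siRNA B replicate 2, siRNA A against control gave -0.01, and without siRNA B replicate 2 siRNA A over siRNA B gave 0.11. Against 0 members called in the 4 comparisons (both siRNAs, siRNA A, siRNA B, siRNA A over siRNA B), the replicate block gave 11, 2, 16 and 3, the replicate block with median centring 14, 3, 20 and 4, and leaving out replicate 1 of both siRNAs 24, 15, 26 and 16. Of all tested genes these called 3.53%, 1.79%, 5.94% and 2.90%, then 4.56%, 1.70%, 8.80% and 4.83%, then 21.5%, 11.3%, 25.5% and 9.42%. Leaving out replicate 2 of both siRNAs gave 1 for siRNA B (2.75% of all tested genes), as did the stricter filter (0.749%). Leaving out 1 array at a time gave 0 to 1 for both siRNAs, 0 for siRNA A, 0 to 19 for siRNA B and 0 to 5 for siRNA A over siRNA B. The fit without the block has 3 residual degrees of freedom and the fit with it 2. Sign changes for both siRNAs together were followed in all tested members. For each siRNA alone they were followed only in the regulators, STARD4 and the 4 members of each branch with the largest fold changes. The lists for single siRNAs thus leave out other members, SQLE and ACLY among them. Signs turned with the replicate 2 arrays of both siRNAs left out as follows. For both siRNAs the log2 fold changes became SQLE -0.054, ACLY -0.14, FASN -0.23, ELOVL6 -0.24, LPIN1 -0.029. For siRNA A they became FDPS -0.032, EBP -0.038, SREBF1 -0.15, FASN -0.32, SCD -0.073, FADS2 -0.013, LPIN1 -0.14. For siRNA B they became SREBF2 -0.11, FASN -0.15. With the median over probe sets SREBF2 was 0.14 for both siRNAs. Leaving out 1 array at a time turned signs within these ranges. For both siRNAs they were ACLY -0.036 to 0.57, ELOVL6 -0.10 to 0.67. For siRNA A they were FDPS -0.032 to 0.80, EBP -0.038 to 1.01, SREBF1 -0.15 to 1.05, FASN -0.32 to 0.82, SCD -0.073 to 0.36, FADS2 -0.037 to 0.33, LPIN1 -0.14 to 0.38. For siRNA B they were SREBF2 -0.11 to 0.11, FASN -0.15 to 1.24. The cause was not tested.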
